A study of Mus musculus with 3 samples.

Results

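The interleukin-1 and inflammasome genes described here are Il1a, Il1b, Il18, Il1rn, Nlrp3, Aim2, Pycard, Casp1, Casp4 and Gsdmd. They are 10 of the 27998 genes counted in a single-cell study of fetal mouse brain, and all 10 were found by their symbols. They were chosen by name as members of the pathway, with earlier results of these data known. Interleukin-1 cytokines are alarm signals of myeloid cells: IL-1α and IL-1β act through the same receptor, and IL-18 through its own. IL-1β and IL-18 are made as inactive precursors. Inflammasomes are complexes in which a sensor protein, such as NLRP3 or AIM2, recruits the adaptor ASC (Pycard) and through it activates caspase-1, which cleaves those precursors and the pore-forming protein gasdermin D. In brain, microglia and other macrophages are the best-known sources of these proteins; transcript counts do not measure cleavage or release.

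Droplet 3' libraries were made from cells enriched for CD11b, an integrin of myeloid cells, with magnetic beads after a Percoll gradient of fetal brains at E18.5. There was 1 library for each of 3 groups: Gzmb-cko with poly(I:C), genotype Ncr1-cre;gzmbf/f; Ncr1-cre with poly(I:C); and Ncr1-cre with saline. Poly(I:C) is a synthetic RNA that imitates viral RNA, Ncr1-cre acts in natural killer cells and kindred lymphocytes, and granzyme B, the product of Gzmb, is a protease of their granules. All 3 groups carried Ncr1-cre, and no Gzmb-cko group with saline was analysed here. Neither the poly(I:C) dose and injection day, nor how many fetuses went into a library, nor whose genotype the label states, dam or fetus, could be read from the labels. With 1 library per group no test between groups was possible. Intervals below are 95% and cover counting error only, and a difference between libraries cannot be told apart from a difference between litters or preparations.

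The libraries held 15306 barcodes with 105574073 UMIs (Gzmb-cko poly(I:C)), 14887 with 85442198 (Ncr1-cre poly(I:C)) and 13820 with 89295907 (Ncr1-cre saline). Cells with at least 500 genes and at most 10% mitochondrial UMIs numbered 13447, 10759 and 12148 in that order. The shallowest barcode had 500 UMIs in Gzmb-cko poly(I:C) and in Ncr1-cre poly(I:C), against 3133 in Ncr1-cre saline, so shallow cells entered from the poly(I:C) libraries but not from saline. A UMI of Itgam, which encodes CD11b, was found in 60.0% of kept cells of Gzmb-cko poly(I:C), 57.4% of Ncr1-cre poly(I:C) and 63.0% of Ncr1-cre saline. The deleted gene had 2 UMIs in 1 cell in Gzmb-cko poly(I:C), 127 UMIs in 6 cells in Ncr1-cre poly(I:C) and 61 UMIs in 4 cells in Ncr1-cre saline. Ncr1 itself had 0 UMIs in Gzmb-cko poly(I:C), 6 in 3 cells in Ncr1-cre poly(I:C) and 8 in 3 cells in Ncr1-cre saline. With so few such cells, deletion of Gzmb cannot be told apart from a lack of the cells that express it, and the label was not checked. 

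Cells were assigned by their marker UMIs. Microglia had P2ry12 and no Mrc1 (5260 cells in Gzmb-cko poly(I:C), 4353 in Ncr1-cre poly(I:C) and 5141 in Ncr1-cre saline). Border macrophages, the macrophages of the meninges, choroid plexus and perivascular spaces, had Mrc1 and Pf4 (1860, 678 and 1069 cells in the same order). Monocytes had Ccr2 and Ly6c2 (316, 359 and 425 cells). Neutrophils had at least 20 UMIs each of S100a8 and S100a9 (117, 426 and 305 cells). All 6 microglial markers, among them Tmem119 and Sall1, which the gate did not use, were detected in the microglia gate, with a summed level of 8271 CPM in Gzmb-cko poly(I:C), 8621 in Ncr1-cre poly(I:C) and 7009 in Ncr1-cre saline, where CPM is UMIs per 1000000 UMIs of the class. The border macrophage gate was less pure: the same markers summed there to 4838, 4910 and 4696 CPM, and 82.6%, 76.0% and 77.5% of its cells also held a P2ry12 UMI, in the same library order. Cells in no gate numbered 5691, 4719 and 4776 and carried 6068, 5191 and 5234 CPM of the microglial markers, so they include cells of microglial type in which no P2ry12 UMI was caught or a UMI of Mrc1 was present.

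Of the 10 genes, 9 matched the RefSeq table of upstream sequence on build GRCm38.p6, and Gsdmd was not in it. The windows of Il1a and Il1b are shown because these were the members furthest apart between libraries in microglia, and those of Nlrp3 and Casp4 because both passed 1.5-fold in monocytes. Each lies upstream of a RefSeq start and is written 5' to 3' on the gene's strand: chr2:129309973-129310222 on the minus strand for Il1a, chr2:129371140-129371389 on the minus strand for Il1b, chr11:59541319-59541567 on the plus strand for Nlrp3 and chr9:5308599-5308827 on the plus strand for Casp4. The Il1a and Il1b windows end at the base before that start. The last 21 bases before it are left out for Casp4 and the last 1 for Nlrp3, because the gene annotation places them inside the gene. Capitals mark matches to the motifs searched.
Il1a: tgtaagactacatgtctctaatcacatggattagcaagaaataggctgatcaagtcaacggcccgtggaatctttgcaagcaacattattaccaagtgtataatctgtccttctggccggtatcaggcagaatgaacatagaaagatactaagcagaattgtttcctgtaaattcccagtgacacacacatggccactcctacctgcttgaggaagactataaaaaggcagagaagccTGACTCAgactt
Il1b: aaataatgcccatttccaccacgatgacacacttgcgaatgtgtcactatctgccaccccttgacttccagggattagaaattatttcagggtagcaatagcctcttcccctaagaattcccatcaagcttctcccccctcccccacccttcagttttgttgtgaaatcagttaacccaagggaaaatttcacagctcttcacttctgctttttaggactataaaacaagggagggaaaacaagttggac
Nlrp3: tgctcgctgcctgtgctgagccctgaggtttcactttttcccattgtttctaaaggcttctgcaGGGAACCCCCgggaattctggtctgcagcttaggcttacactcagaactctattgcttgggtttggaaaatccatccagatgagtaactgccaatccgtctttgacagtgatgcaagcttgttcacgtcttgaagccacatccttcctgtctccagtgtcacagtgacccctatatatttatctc
Casp4: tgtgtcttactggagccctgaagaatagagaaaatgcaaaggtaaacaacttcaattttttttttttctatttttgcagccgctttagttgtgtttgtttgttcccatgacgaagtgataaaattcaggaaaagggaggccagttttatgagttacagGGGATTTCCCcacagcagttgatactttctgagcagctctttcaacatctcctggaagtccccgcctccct

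Windows were searched on both strands for the kappaB motif (GGGA, any 4 bases, CC), the AP-1 motif TGANTCA and the interferon-stimulated response element (GAAA, any 2 bases, GAAA), which 17.6%, 6.75% and 2.98% of 32851 RefSeq windows hold. The Il1a window has the AP-1 match TGACTCA with its first base 12 bases before the RefSeq start, from which all positions are counted. The Casp4 window has the kappaB match GGGATTTCCC beginning 92 bases before that start (the bases left out are counted), and the Nlrp3 window has GGGAACCCCC beginning 186 bases before it. One of 3 annotated Il1rn starts has both, GGGAGTGGCC at 54 and TGAGTCA at 141 bases before it. No match was found for Il1b, Il18, Casp1, Pycard or Aim2, nor at the other annotated starts of Nlrp3 and Il1rn. A match is a run of letters and not a shown binding site, and reads from transcript 3' ends do not tell which start was used.

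The genes lie on 6 chromosomes of GRCm38. Il1a (chromosome 2, 129299610 to 129309972) and Il1b (129364570 to 129371139) are neighbours on the minus strand, while Il1rn (24336853 to 24351494) lies far from them on the same chromosome. Casp1 (5298517 to 5307265) and Casp4 (5308828 to 5336783) adjoin on the plus strand of chromosome 9, which also holds Il18 (50554827 to 50581840). Nlrp3 is on chromosome 11 (59541568 to 59566956), Pycard on chromosome 7 (127989708 to 127993867), Gsdmd on chromosome 15 (75862327 to 75867408) and Aim2 on chromosome 1 (173350879 to 173466040). Genes on the opposite strand overlap Il1a (Gm14023), Il1b (Il1bos), Il18 (Bco2 and Tex12), Pycard (Gm45205) and Aim2 (Cadm3); no source used here says whether counting used strand, and without it their reads cannot be told apart.

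**Figure D1:**
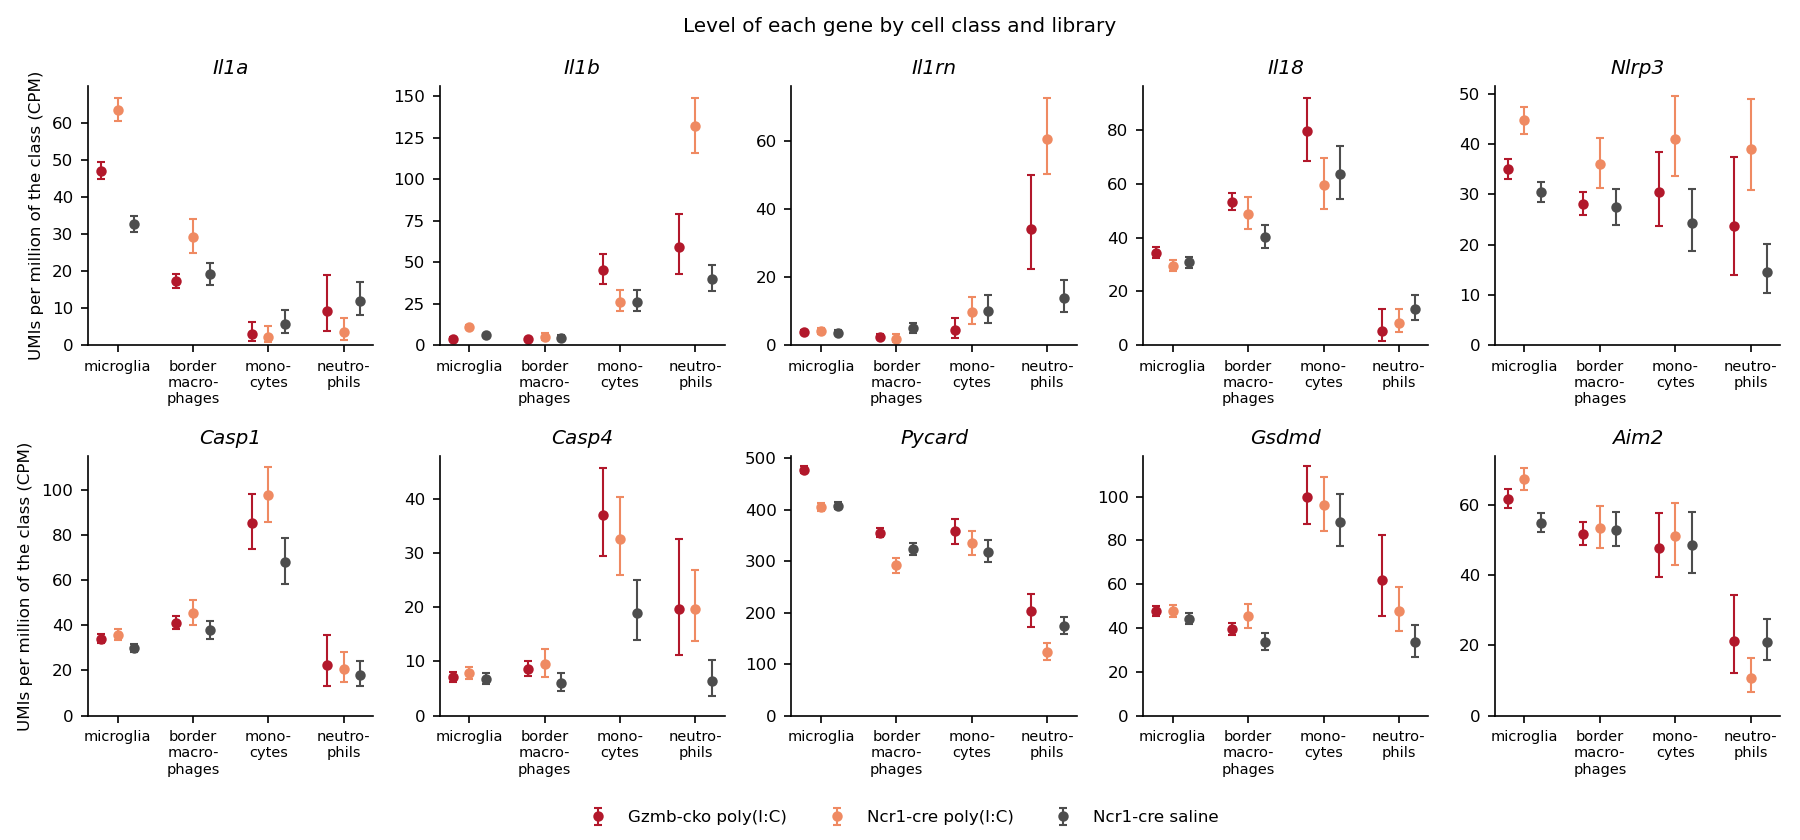
Level of each of the 10 genes (vertical axis, CPM, each panel from 0) in microglia, border macrophages, monocytes and neutrophils; points are single libraries and bars exact Poisson 95% intervals. Il1a is highest in microglia in all 3 libraries, whereas Il1b and Il1rn reach their highest values in Ncr1-cre poly(I:C) neutrophils (132 and 60.7 CPM).

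Il1a, the cytokine that is active without cleavage by caspase-1, had its highest level in microglia in all 3 libraries. That level was 47.0 CPM in Gzmb-cko poly(I:C) (interval 44.7 to 49.3), 63.4 in Ncr1-cre poly(I:C) (60.4 to 66.6) and 32.6 in Ncr1-cre saline (30.6 to 34.7). The order of the libraries was Ncr1-cre poly(I:C), then Gzmb-cko poly(I:C), then saline, and the 3 intervals did not overlap. Relative to saline, Ncr1-cre poly(I:C) microglia had 1.95 times as much Il1a (1.80 to 2.11; log2 0.96). Gzmb-cko poly(I:C) microglia had 0.741 times the level of Ncr1-cre poly(I:C) (0.691 to 0.794; log2 -0.43), short of 1.5-fold.

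Il1a UMIs were spread over many microglia. After each cell was thinned to 2000 UMIs, 9.94% of cells held an Il1a UMI in Gzmb-cko poly(I:C), 12.4% in Ncr1-cre poly(I:C) and 6.50% in Ncr1-cre saline (23.3%, 25.4% and 15.6% before thinning, at median depths of 5739.5, 5110 and 4737 UMIs). Thinning left out 169, 441 and 0 shallower microglia. Neurons of the same libraries, which should lack the gene, had none after thinning. This was 0 of 70 thinned cells in Gzmb-cko poly(I:C), which allows a share of up to 4.29%. It was 0 of 244 in Ncr1-cre poly(I:C) (up to 1.23%) and 0 of 60 in Ncr1-cre saline (up to 5.0%). Before thinning, 0 of 73, 3 of 247 (1.21%) and 1 of 60 (1.67%) neurons held an Il1a UMI in library order. The neuron levels were 0, 2.22 and 3.61 CPM, at median depths of 4886, 4803 and 4306 UMIs.

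In border macrophages Il1a stood at 17.2 CPM in Gzmb-cko poly(I:C) (15.5 to 19.2), 29.1 in Ncr1-cre poly(I:C) (24.9 to 33.9) and 19.1 in Ncr1-cre saline (16.3 to 22.2). Ncr1-cre poly(I:C) was the high library, and the intervals of the other 2 overlapped. The ratio was 0.592 (0.491 to 0.716; log2 -0.76) for Gzmb-cko poly(I:C) over Ncr1-cre poly(I:C) and 1.53 (1.23 to 1.90; log2 0.61) for Ncr1-cre poly(I:C) over saline. Nearly all of this signal sat in the gated cells that also held P2ry12: they carried 97.0% of the class's Il1a UMIs in Gzmb-cko poly(I:C), 96.4% in Ncr1-cre poly(I:C) and 91.6% in Ncr1-cre saline. In the 324, 163 and 240 cells without P2ry12 the level was 4.09 CPM in Gzmb-cko poly(I:C) (1.96 to 7.52), 5.07 in Ncr1-cre poly(I:C) (1.86 to 11) and 8.42 in Ncr1-cre saline (4.6 to 14.1), with overlapping intervals and no high library. This split of the gate was chosen after the values were seen. Border macrophages that express P2ry12, microglia with Mrc1 and Pf4, and droplets that caught both cell types cannot be told apart by it.

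Il1a was sparse in the other classes. Monocytes held 7, 6 and 15 UMIs (3.04 CPM in Gzmb-cko poly(I:C), 2.32 in Ncr1-cre poly(I:C) and 5.79 in Ncr1-cre saline), and neutrophils held 7, 7 and 30 (9.21, 3.60 and 11.9 CPM in the same order). Both are below the 100 UMIs over a pair of libraries that were required for a comparison, so none was made. The monocyte intervals overlapped those of neurons in each library.

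Il1b, the cytokine precursor that caspase-1 cleaves, had the opposite distribution. Its highest levels were in neutrophils and monocytes, and in microglia it was rare and uneven. In microglia it stood at 3.89 CPM in Gzmb-cko poly(I:C) (135 UMIs, 3.26 to 4.6), 11 in Ncr1-cre poly(I:C) (281 UMIs, 9.74 to 12.4) and 5.96 in Ncr1-cre saline (178 UMIs, 5.11 to 6.90). The 3 libraries did not overlap, and Gzmb-cko poly(I:C) was the lowest. Il1b was 2.83-fold lower in Gzmb-cko poly(I:C) than in Ncr1-cre poly(I:C) (2.29 to 3.5; log2 -1.50) and 1.84 times as high in Ncr1-cre poly(I:C) as in saline (1.52 to 2.24; log2 0.88).

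These intervals are too narrow for Il1b, because its UMIs came in clusters. In microglia they lay in 80 of 5260 cells of Gzmb-cko poly(I:C), 121 of 4353 of Ncr1-cre poly(I:C) and 108 of 5141 of Ncr1-cre saline. The 1% of microglia richest in Il1b held 80.0%, 72.6% and 68.5% of all Il1b UMIs in that library order, against 13.1%, 13.3% and 14.7% for the corresponding share of Il1a and 11.6%, 10.6% and 12.5% for Nlrp3. The richest cell had 8 UMIs in Gzmb-cko poly(I:C), 25 in Ncr1-cre poly(I:C) and 28 in Ncr1-cre saline. Without that cell in each library the log2 ratios were -1.45 for Gzmb-cko poly(I:C) over Ncr1-cre poly(I:C) and 1.0 for Ncr1-cre poly(I:C) over saline. The share of thinned microglia with an Il1b UMI was 0.668% in Gzmb-cko poly(I:C) (0.463% to 0.932%), 1.38% in Ncr1-cre poly(I:C) (1.04% to 1.80%) and 0.875% in Ncr1-cre saline (0.639% to 1.17%); unthinned it was 1.52%, 2.78% and 2.10%. The thinned share in neurons was 0, 0.410% (0.0104% to 2.26%) and 0, over 70, 244 and 60 cells, which is too few to set a background below the microglial share.

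**Figure D2:**
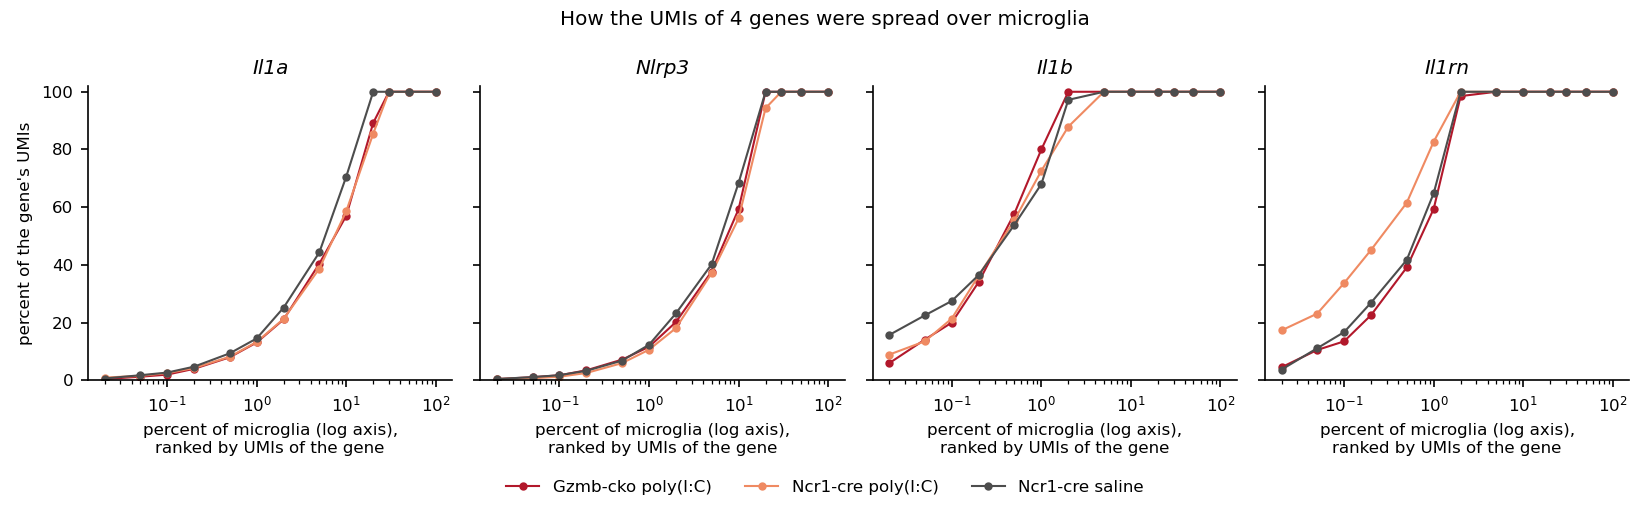
Cumulative share of a gene's UMIs (vertical axis, percent) held by microglia ranked from the most to the fewest UMIs of that gene (horizontal axis, percent of microglia, log scale), by library. For Il1b the richest 1% of cells hold 80.0%, 72.6% and 68.5% of the UMIs in Gzmb-cko poly(I:C), Ncr1-cre poly(I:C) and Ncr1-cre saline, whereas for Il1a the same share of cells holds 13.1%, 13.3% and 14.7%.

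Microglia with an Il1b UMI differed from the remaining microglia in other transcripts. Il1a was 107 CPM in Il1b-bearing cells of Gzmb-cko poly(I:C), against 45.9 in the other microglia of that library. In Ncr1-cre poly(I:C) it was 116 against 61.7 CPM, and in Ncr1-cre saline 74.9 against 31.5 CPM. The intervals of the cell groups were apart in each library. The depths were similar: Il1b-bearing cells had median totals of 6041, 5777 and 5480 UMIs in library order, and the others 5731.5, 5084.5 and 4727. Ccl2, a monocyte-attracting chemokine, was likewise higher in Il1b-bearing cells, at 224 against 56.0 CPM in Gzmb-cko poly(I:C), 386 against 115 in Ncr1-cre poly(I:C) and 193 against 45.9 in Ncr1-cre saline. Casp4 was 28.6 CPM in Il1b-bearing cells (18.3 to 42.6) and 7.12 in the others (6.10 to 8.25) in Ncr1-cre poly(I:C), while in Gzmb-cko poly(I:C) and saline the intervals of both cell groups overlapped.

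The Il1b-bearing microglia also held more Plac8 and Ccr2, which are expressed by blood monocytes, and less P2ry12; the genes of this paragraph were chosen after their values were seen. Plac8 was 308 against 38.7 CPM in Gzmb-cko poly(I:C), 451 against 46.7 in Ncr1-cre poly(I:C) and 417 against 82.4 in Ncr1-cre saline, and Ccr2 was 47.9 against 9.12, 94.2 against 14.6 and 54.1 against 18.3 CPM. P2ry12 was 756 against 1081, 887 against 1309 and 665 against 843 CPM. Other markers of these cell types did not separate the cells in this way, though for Ly6c2 the gates had limited this beforehand. The monocyte marker Ly6c2 was 3.2 against 2.99 CPM in Gzmb-cko poly(I:C), 1.19 against 2.3 in Ncr1-cre poly(I:C) and 2.77 against 5.42 in Ncr1-cre saline, from 1 or 2 UMIs in the Il1b-bearing cells. The 98, 96 and 196 cells that met both the microglia and the monocyte gate held Ccr2 and Ly6c2 and had been left out. Low Ly6c2 therefore does not bear on whether the Il1b-bearing cells were monocytes. The microglial marker Tmem119 was 278 against 298, 361 against 338 and 279 against 258 CPM, with overlapping intervals in each library. Sall1 was 133 against 171, 174 against 180 and 147 against 151 CPM, with intervals apart in Gzmb-cko poly(I:C) only. The chemokine Ccl4 was 767 against 189, 637 against 226 and 663 against 137 CPM. With every cell that held Plac8 or Ccr2 left out, 6.22%, 5.70% and 12.3% of microglia and 23.0%, 36.7% and 46.1% of their Il1b UMIs were lost. Il1b was then 3.24 CPM in Gzmb-cko poly(I:C), 7.50 in Ncr1-cre poly(I:C) and 3.79 in Ncr1-cre saline, with log2 ratios of -1.21 and 0.99, both past 1.5-fold.

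Cells outside the gates held Il1b too. Cells in no gate had 4.83 CPM in Gzmb-cko poly(I:C) (4.16 to 5.58), 7.88 in Ncr1-cre poly(I:C) (6.87 to 8.99) and 10.9 in Ncr1-cre saline (9.76 to 12.1), so saline was the high library there, unlike in gated microglia. For Il1a these cells had 28.7, 31.1 and 20.9 CPM in the same order, with saline lowest as in microglia, and they held 35.2%, 32.3% and 34.5% of all Il1a UMIs of kept cells. Cells that met more than 1 gate had 51.4, 47.8 and 37.5 CPM of Il1b. With them added to each class they met, Il1b in microglia had log2 ratios of -1.14 for Gzmb-cko poly(I:C) over Ncr1-cre poly(I:C) and 0.58 for Ncr1-cre poly(I:C) over saline, the second just short of 1.5-fold.

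**Figure D3:**
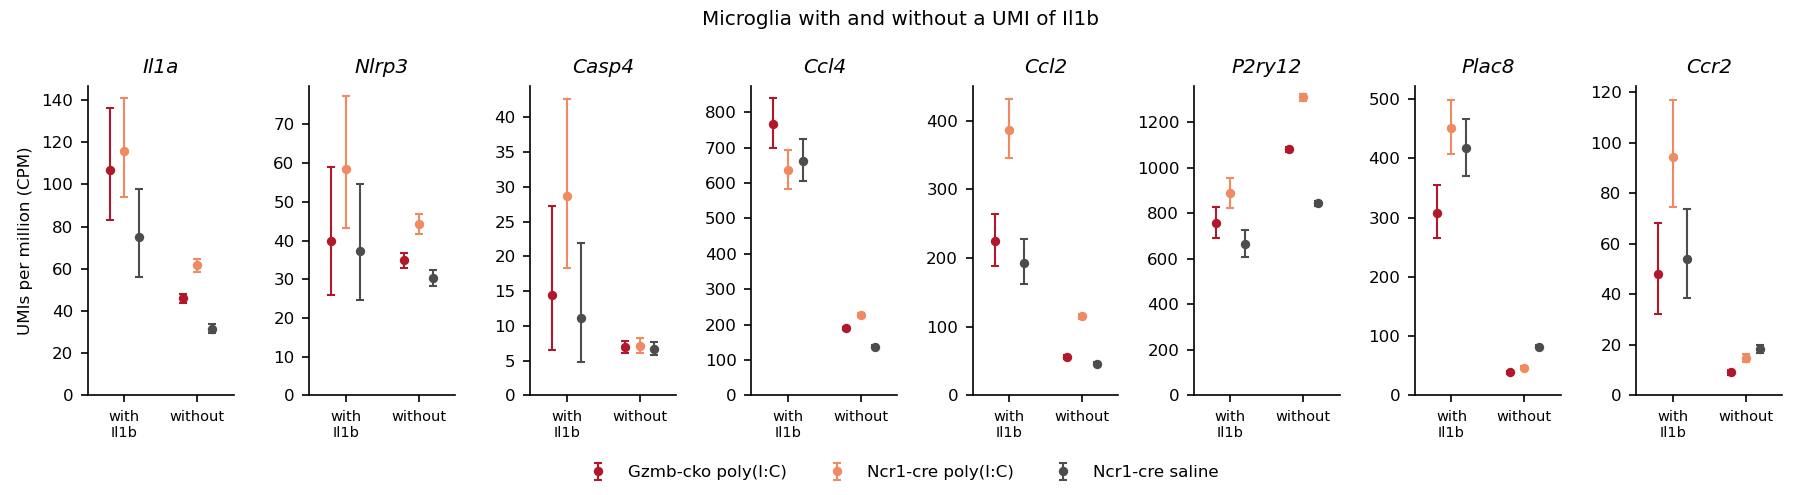
Levels (vertical axis, CPM, each panel from 0) of 8 genes in microglia with and without a UMI of Il1b, by library, with exact Poisson 95% intervals. Il1a, Ccl4, Ccl2, Plac8 and Ccr2 are higher and P2ry12 is lower in Il1b-bearing cells in each library.

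Monocytes held Il1b at 45.2 CPM in Gzmb-cko poly(I:C) (104 UMIs, 37.0 to 54.8), 26.3 in Ncr1-cre poly(I:C) (68 UMIs, 20.4 to 33.4) and 26.2 in Ncr1-cre saline (68 UMIs, 20.4 to 33.3). Here the Gzmb-cko poly(I:C) library was the high one in CPM and the other libraries were level. These UMIs lay in 36, 35 and 26 cells in library order, and the richest 1% of monocytes held 39.4%, 29.4% and 55.9% of them. The intervals are thus too narrow here too. The share of thinned monocytes with an Il1b UMI was 6.37% (3.93% to 9.67%), 3.36% (1.75% to 5.8%) and 2.82% (1.47% to 4.88%), with overlapping intervals. Unthinned it was 11.4%, 9.75% and 6.12%. The ratio of levels was 1.72 (1.25 to 2.37; log2 0.78) for Gzmb-cko poly(I:C) over Ncr1-cre poly(I:C) and 1.0 (0.706 to 1.43; log2 0.01) for Ncr1-cre poly(I:C) over saline. The first of these depended on the cells taken: with cells that fell in more than 1 gate kept, log2 was 0.30, and among cells with Xist and no Y-linked UMI it was -0.0041. In border macrophages Il1b was too sparse to compare (67, 29 and 40 UMIs; 3.43 CPM in Gzmb-cko poly(I:C), 5.0 in Ncr1-cre poly(I:C) and 4.56 in Ncr1-cre saline).

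In neutrophils Il1b stood at 59.2 CPM in Gzmb-cko poly(I:C) (45 UMIs, 43.2 to 79.3), 132 in Ncr1-cre poly(I:C) (256 UMIs, 116 to 149) and 40 in Ncr1-cre saline (101 UMIs, 32.6 to 48.6). Ncr1-cre poly(I:C) was the high library. The ratio was 0.450 (0.320 to 0.619; log2 -1.15) for Gzmb-cko poly(I:C) over Ncr1-cre poly(I:C) and 3.29 (2.61 to 4.19; log2 1.72) for Ncr1-cre poly(I:C) over saline. The Il1b UMIs of neutrophils lay in 14, 92 and 39 cells in library order, so these intervals too are too narrow. The share of thinned neutrophils with an Il1b UMI was 6.31% (2.57% to 12.6%), 11.2% (8.14% to 14.8%) and 6.89% (4.31% to 10.3%), with overlapping intervals. Thinning left out 6, 59 and 0 shallower neutrophils. Much of the neutrophil Il1b was in shallow cells, of which saline had none. With only cells of at least 3133 UMIs, the level was 35.4 CPM in Gzmb-cko poly(I:C) (22.9 to 52.2), 46.2 in Ncr1-cre poly(I:C) (36.2 to 58.0) and 40 in Ncr1-cre saline, with overlapping intervals and log2 ratios of -0.38 and 0.21. The limit removed 18.8% of Gzmb-cko poly(I:C) neutrophils with 44.4% of their Il1b UMIs, and 38.3% of Ncr1-cre poly(I:C) neutrophils with 71.5%. Stricter limits on cells (at least 1000 genes, at most 5% mitochondrial UMIs) left 12, 22 and 34 Il1b UMIs, at 23.4 CPM in Gzmb-cko poly(I:C), 17.2 in Ncr1-cre poly(I:C) and 18.7 in Ncr1-cre saline, and the order of the libraries was no longer that above.

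Neutrophils also differed in maturity markers. Camp, Ngp and Ltf encode granule proteins made in neutrophil precursors. Cells with at least 20 UMIs of the 3 together made up 62.4% of neutrophils in Gzmb-cko poly(I:C), 46.5% in Ncr1-cre poly(I:C) and 73.8% in Ncr1-cre saline. Il1b in those cells was 7.33, 2.58 and 8.40 CPM in library order. In the cells under 20 UMIs it was 191 CPM in Gzmb-cko poly(I:C) (44 cells, 137 to 260), 324 in Ncr1-cre poly(I:C) (228 cells, 285 to 366) and 116 in Ncr1-cre saline (80 cells, 92.8 to 143). The library with the smallest share of granule-rich cells was thus the one with the highest Il1b over all neutrophils, and within the granule-poor cells Ncr1-cre poly(I:C) was again above the other libraries without overlap of the intervals. The granule-poor cells' median depth was 3389, 2601.5 and 7252.5 UMIs, against 5570, 4876.5 and 6071 in granule-rich cells. Over all neutrophils it was 4846, 3818.5 and 6549 UMIs. The cut of 20 UMIs was not scaled for depth, so shallow cells fall under it more easily. How far depth moved the shares of granule-rich cells was not tested. The 6 monocyte markers (Ccr2, Ly6c2, Plac8, Ms4a4c, Chil3 and Hp) summed to 4926, 4131 and 2945 CPM in the neutrophil gate. Cells with both Ccr2 and Ly6c2 had been left out of it, and the sum does not tell which cells it came from. Erythroid markers summed to 7380, 32210 and 109086 CPM. The part of either marker set in these differences was not tested. In cells just inside the gate, with 20 to 39 UMIs of the scarcer of S100a8 and S100a9, Il1b was 246, 166 and 90.4 CPM. These values rest on 31, 30 and 30 Il1b UMIs in 16, 30 and 33 cells. In cells just outside it, with 10 to 19, Il1b was 186, 77.7 and 57.4 CPM, from 13, 10 and 12 UMIs in 12, 16 and 27 cells. Cells that also met another gate were counted in both sets, so the UMIs are not a share of the neutrophil totals above.

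**Figure D4:**
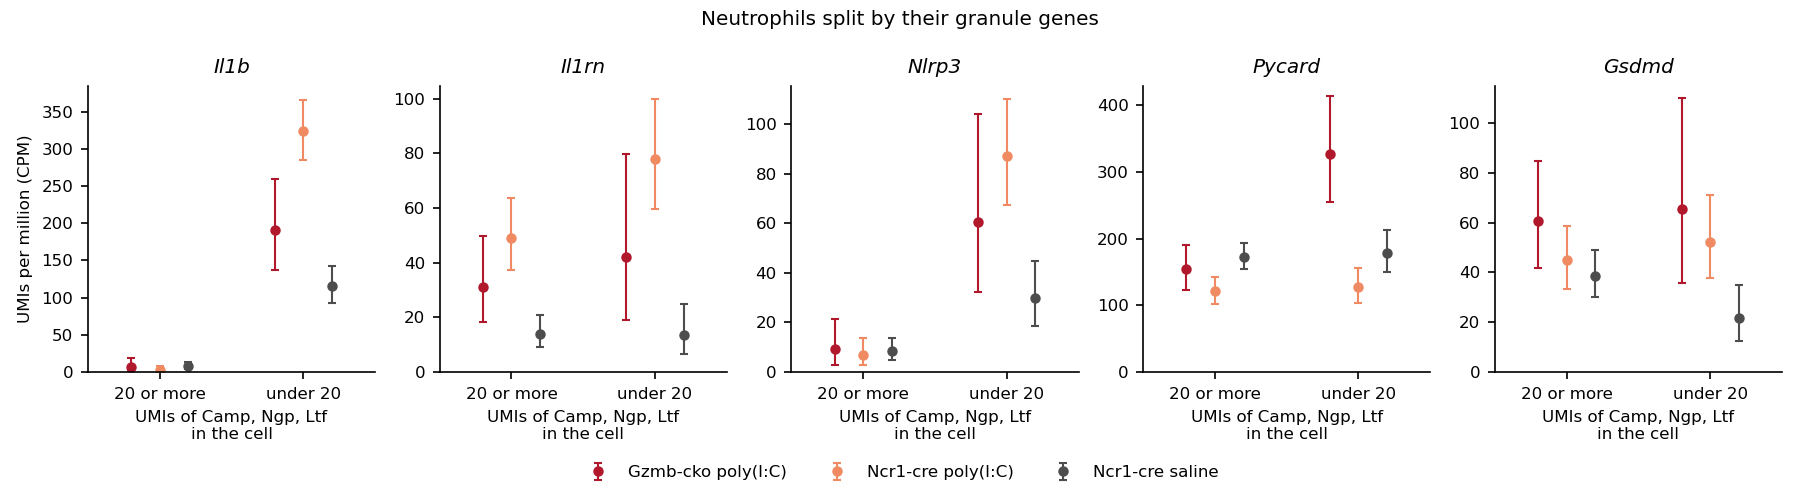
Il1b, Il1rn, Nlrp3, Pycard and Gsdmd (vertical axis, CPM, each panel from 0) in neutrophils with 20 or more UMIs of the granule genes Camp, Ngp and Ltf and in those with fewer, by library, with exact Poisson 95% intervals. Il1b lies under 10 CPM in the granule-rich cells and between 116 and 324 CPM in the granule-poor cells, while Il1rn is 31.2, 49.1 and 14.0 CPM in the granule-rich cells of Gzmb-cko poly(I:C), Ncr1-cre poly(I:C) and Ncr1-cre saline.

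Il18, the other precursor cleaved by caspase-1, moved little. In microglia it was 34.4 CPM in Gzmb-cko poly(I:C) (32.5 to 36.4), 29.6 in Ncr1-cre poly(I:C) (27.5 to 31.8) and 30.8 in Ncr1-cre saline (28.8 to 32.8), with the last 2 overlapping. The ratios were 1.16 (1.06 to 1.28) for Gzmb-cko poly(I:C) over Ncr1-cre poly(I:C) and 0.963 (0.873 to 1.06) for Ncr1-cre poly(I:C) over saline. It was higher in border macrophages, at 53.4, 48.9 and 40.4 CPM in library order, and highest in monocytes, at 79.6, 59.6 and 63.7 CPM. The monocyte ratio of Gzmb-cko poly(I:C) over Ncr1-cre poly(I:C) was 1.33 (1.07 to 1.66). Neutrophils held 4, 16 and 34 Il18 UMIs (5.27, 8.23 and 13.5 CPM), too few to compare.

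Il1rn encodes the receptor antagonist that blocks IL-1α and IL-1β, and its level was highest in neutrophils, although in saline the interval overlapped that of monocytes. Of the Il1rn UMIs of kept cells, neutrophils held 7.18%, 29.2% and 8.33% in library order and the far more numerous microglia 36.7%, 25.7% and 25.7%. The neutrophil level was 34.2 CPM in Gzmb-cko poly(I:C) (26 UMIs, 22.4 to 50.1), 60.7 in Ncr1-cre poly(I:C) (118 UMIs, 50.3 to 72.7) and 13.9 in Ncr1-cre saline (35 UMIs, 9.65 to 19.3), and the 3 intervals did not overlap. The ratios were 0.564 (0.354 to 0.868; log2 -0.83) for Gzmb-cko poly(I:C) over Ncr1-cre poly(I:C) and 4.38 (2.98 to 6.59; log2 2.13) for Ncr1-cre poly(I:C) over saline. Unlike Il1b, it was also present in granule-rich neutrophils (31.2, 49.1 and 14.0 CPM in library order, against 42.0, 78.0 and 13.5 in granule-poor cells). With only cells of at least 3133 UMIs the level was 31.1 CPM in Gzmb-cko poly(I:C), 49.3 in Ncr1-cre poly(I:C) and 13.9 in Ncr1-cre saline, with log2 ratios of -0.66 and 1.83, both still past 1.5-fold. The share of thinned neutrophils with an Il1rn UMI was 10.8%, 14.2% and 3.93%, against 0 in neurons of each library.

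In microglia Il1rn was 3.83 CPM in Gzmb-cko poly(I:C), 4.07 in Ncr1-cre poly(I:C) and 3.61 in Ncr1-cre saline, with overlapping intervals, and the ratios were 0.942 (0.723 to 1.23) and 1.13 (0.851 to 1.49) for the genotype and the poly(I:C) comparison. Its direction was not stable, with log2 from -0.36 to 0.44 and from -0.35 to 0.96 over 15 alternative settings. In border macrophages (48, 10 and 43 UMIs) and monocytes (10, 25 and 26 UMIs) it was too sparse to compare.

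Nlrp3, the sensor that responds to membrane and ion disturbance, was more evenly present than the cytokines. In microglia it was 35.0 CPM in Gzmb-cko poly(I:C) (33.0 to 37.0), 44.7 in Ncr1-cre poly(I:C) (42.1 to 47.3) and 30.4 in Ncr1-cre saline (28.5 to 32.5). Ncr1-cre poly(I:C) was highest and the intervals did not overlap, but the ratios of 0.783 (0.722 to 0.850; log2 -0.35) and 1.47 (1.34 to 1.60; log2 0.55) were short of 1.5-fold. The library order was the same in border macrophages (28.1, 36.0 and 27.4 CPM) and monocytes (30.4, 41.0 and 24.3 CPM). In monocytes the ratio of Ncr1-cre poly(I:C) over saline was 1.69 (1.22 to 2.34; log2 0.76) and that of Gzmb-cko poly(I:C) over Ncr1-cre poly(I:C) was 0.742 (0.541 to 1.01). The share of thinned monocytes with an Nlrp3 UMI was 4.46%, 7.84% and 5.65% in library order, with overlapping intervals.

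In neutrophils Nlrp3 was 23.7 CPM in Gzmb-cko poly(I:C) (18 UMIs), 39.1 in Ncr1-cre poly(I:C) (76 UMIs) and 14.6 in Ncr1-cre saline (37 UMIs). Only the poly(I:C) comparison had enough UMIs, with a ratio of 2.67 (1.78 to 4.07; log2 1.42). As with Il1b, most Nlrp3 lay in granule-poor cells (60.7, 87.0 and 29.7 CPM, against 9.16, 6.89 and 8.40 in granule-rich cells), and with cells of at least 3133 UMIs only the levels were 18.4 CPM in Gzmb-cko poly(I:C), 20.2 in Ncr1-cre poly(I:C) and 14.6 in Ncr1-cre saline (log2 0.47 for Ncr1-cre poly(I:C) over saline, short of 1.5-fold). The share of thinned microglia with an Nlrp3 UMI was 6.86%, 9.38% and 6.34% in library order, against 0, 0.410% and 0 in neurons.

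Aim2, the sensor of DNA in the cytosol, was highest in microglia in each library, although in saline the intervals overlapped those of border macrophages and monocytes. In microglia it was 61.7 CPM in Gzmb-cko poly(I:C) (59.1 to 64.4), 67.2 in Ncr1-cre poly(I:C) (64.1 to 70.5) and 54.8 in Ncr1-cre saline (52.2 to 57.5), with ratios of 0.918 (0.861 to 0.979) and 1.23 (1.15 to 1.31). In border macrophages (51.7, 53.4 and 52.8 CPM) and monocytes (47.8, 51.1 and 48.6 CPM) the intervals overlapped across all libraries. In border macrophages without P2ry12 it was 36.8 CPM in Gzmb-cko poly(I:C), 36.3 in Ncr1-cre poly(I:C) and 43.3 in Ncr1-cre saline. It was lower in neutrophils (16, 21 and 53 UMIs; 21.1, 10.8 and 21.0 CPM) and not compared there.

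Pycard encodes ASC, the adaptor that links sensor to caspase, and it was found in most microglia. A Pycard UMI was present in 59.6% of thinned microglia in Gzmb-cko poly(I:C), 54.4% in Ncr1-cre poly(I:C) and 55.4% in Ncr1-cre saline, against 11.4%, 5.74% and 5.0% of neurons. Its level was 478 CPM in Gzmb-cko poly(I:C) (471 to 485), 405 in Ncr1-cre poly(I:C) (398 to 413) and 408 in Ncr1-cre saline (401 to 415), so Gzmb-cko poly(I:C) was the high library and the others overlapped. The ratios were 1.18 (1.15 to 1.21) and 0.994 (0.968 to 1.02). Border macrophages gave 356, 292 and 324 CPM (ratios 1.22 and 0.901), and monocytes 358, 335 and 319 CPM (1.07 and 1.05). In neutrophils it was 203 CPM in Gzmb-cko poly(I:C) (172 to 237), 124 in Ncr1-cre poly(I:C) (109 to 141) and 175 in Ncr1-cre saline (159 to 192), a ratio of 1.63 (1.33 to 2.01; log2 0.71) for Gzmb-cko poly(I:C) over Ncr1-cre poly(I:C). In the thinned neutrophils the shares with Pycard were 22.5%, 23.4% and 23.0%, so the difference in level was not seen in the share of cells.

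Casp1, the inflammasome protease, had its highest level in monocytes: 85.3 CPM in Gzmb-cko poly(I:C) (73.7 to 98.1), 97.6 in Ncr1-cre poly(I:C) (85.9 to 110) and 67.9 in Ncr1-cre saline (58.2 to 78.7). The ratios there were 0.874 (0.721 to 1.06) and 1.44 (1.18 to 1.75; log2 0.52). Microglia held 34.0, 35.8 and 29.9 CPM (ratios 0.950 and 1.20) and border macrophages 41.1, 45.3 and 37.8 CPM (ratios 0.907 and 1.20). Neutrophils had 17, 40 and 46 UMIs (22.4, 20.6 and 18.2 CPM), too few to compare. Neurons held no Casp1 UMI in any library.

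Casp4 is the mouse gene of caspase-11, which binds bacterial lipopolysaccharide in the cytosol and can cleave gasdermin D without caspase-1. It too was highest in monocytes, at 37.0 CPM in Gzmb-cko poly(I:C) (85 UMIs, 29.5 to 45.7), 32.5 in Ncr1-cre poly(I:C) (84 UMIs, 25.9 to 40.3) and 18.9 in Ncr1-cre saline (49 UMIs, 14.0 to 25). Both poly(I:C) libraries were above saline without overlap of the intervals. The share of thinned monocytes with a Casp4 UMI did not follow that order: it was 4.78% in Gzmb-cko poly(I:C) (2.7% to 7.76%), 6.44% in Ncr1-cre poly(I:C) (4.13% to 9.51%) and 4.94% in Ncr1-cre saline (3.08% to 7.45%), with overlapping intervals. The ratio of levels was 1.14 (0.831 to 1.56) for Gzmb-cko poly(I:C) over Ncr1-cre poly(I:C) and 1.72 (1.20 to 2.50; log2 0.78) for Ncr1-cre poly(I:C) over saline. With likely doublets removed, log2 was 0.46 for Ncr1-cre poly(I:C) over saline, short of 1.5-fold. In border macrophages Casp4 was 8.60, 9.48 and 6.05 CPM (ratios 0.907 and 1.57, the second 1.06 to 2.33), and in microglia 7.08, 7.82 and 6.83 CPM (0.906 and 1.15). The border macrophage intervals of Ncr1-cre poly(I:C) and saline overlapped. Neutrophils had 15, 38 and 16 UMIs (19.7, 19.6 and 6.33 CPM), too few to compare.

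Gsdmd, the pore-forming effector, varied least of the 10 genes in the microglial genotype comparison. Microglia held 47.6 CPM in Gzmb-cko poly(I:C) (45.3 to 49.9), 47.9 in Ncr1-cre poly(I:C) (45.2 to 50.6) and 44.2 in Ncr1-cre saline (41.9 to 46.7), with ratios of 0.994 (0.923 to 1.07) and 1.08 (1.0 to 1.17). Monocytes held 100 CPM in Gzmb-cko poly(I:C), 96.0 in Ncr1-cre poly(I:C) and 88.4 in Ncr1-cre saline, with overlapping intervals. Border macrophages held 39.7, 45.3 and 33.5 CPM, with ratios of 0.875 (0.760 to 1.01) and 1.35 (1.14 to 1.60). Neutrophils held 61.9, 47.9 and 33.6 CPM, with ratios of 1.29 (0.890 to 1.86) and 1.42 (1.05 to 1.93).

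Each gene's ratios were then set against those of all genes with at least 100 UMIs over the pair of libraries. Both comparisons share the library of Ncr1-cre with poly(I:C), so a high or low value there moves them in opposite directions. In microglia 1 of 10 members, Il1b, was at least 1.5-fold lower in Gzmb-cko poly(I:C) than in Ncr1-cre poly(I:C) and none was higher, while 6.27% of 11311 genes were that much lower and 0.778% higher (7.05% either way). By any amount 8 members were lower and 2 higher, against 61.3% and 38.7% of all genes. For Ncr1-cre poly(I:C) over saline 2 of 10 members, Il1a and Il1b, were at least 1.5-fold higher, against 6.8% of 11289 genes, and none was lower, against 2% (8.81% either way). By any amount 8 members were higher and 2 lower, against 74.5% and 25.5% of genes. The small differences among these turned direction under some settings for Il1rn, Casp4 and Gsdmd in both comparisons, for Casp1 and Aim2 in the genotype comparison and for Il18 and Pycard in the poly(I:C) comparison. The members' median log2 ratio was -0.11, against -0.06 over all genes, for the genotype comparison and 0.23, against 0.18, for the poly(I:C) comparison. Scaling by total UMIs thus placed the median gene 0.18 higher in Ncr1-cre poly(I:C) than in saline in microglia, 0.18 in border macrophages and 0.19 in monocytes; with TMM scaling, which removes much of that shift, Il1a and Il1b in microglia were at 0.79 and 0.71.

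In border macrophages 8 members could be compared. In Gzmb-cko poly(I:C) against Ncr1-cre poly(I:C), 1 member (Il1a) was at least 1.5-fold lower and none higher, against 5.05% and 1.41% of 9942 genes (6.46% either way). In Ncr1-cre poly(I:C) against saline, 2 (Il1a and Casp4) were higher and none lower, against 10% and 2.04% of 8902 genes (12.1% either way), and with TMM scaling neither was past 1.5-fold (log2 0.41 and 0.44). In monocytes 8 members were compared: 1 (Il1b) was higher and none lower in Gzmb-cko poly(I:C) than in Ncr1-cre poly(I:C), against 2.47% and 2.93% of 5391 genes (5.4% either way), and 2 (Nlrp3 and Casp4) were higher and none lower in Ncr1-cre poly(I:C) than in saline, against 11.2% and 3.98% of 5448 genes (15.1% either way). In neutrophils 4 members were compared between Gzmb-cko poly(I:C) and Ncr1-cre poly(I:C): Pycard was higher and Il1b and Il1rn lower, where 13.8% and 7.91% of 2704 genes were (21.7% either way). Of 5 compared between Ncr1-cre poly(I:C) and saline, Il1b, Il1rn and Nlrp3 were higher and none lower, where 26.7% and 20.6% of 3977 genes were. With 47.3% of genes past 1.5-fold either way, a difference of that size is common between these neutrophil libraries. The members' median log2 ratios over the 3 sparser classes were -0.14, 0.08 and -0.23 for Gzmb-cko poly(I:C) over Ncr1-cre poly(I:C) in border macrophages, monocytes and neutrophils, against -0.06, -0.04 and 0.02 over all genes. For Ncr1-cre poly(I:C) over saline they were 0.34, 0.10 and 1.42, against 0.18, 0.19 and 0.10.

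**Figure D5:**
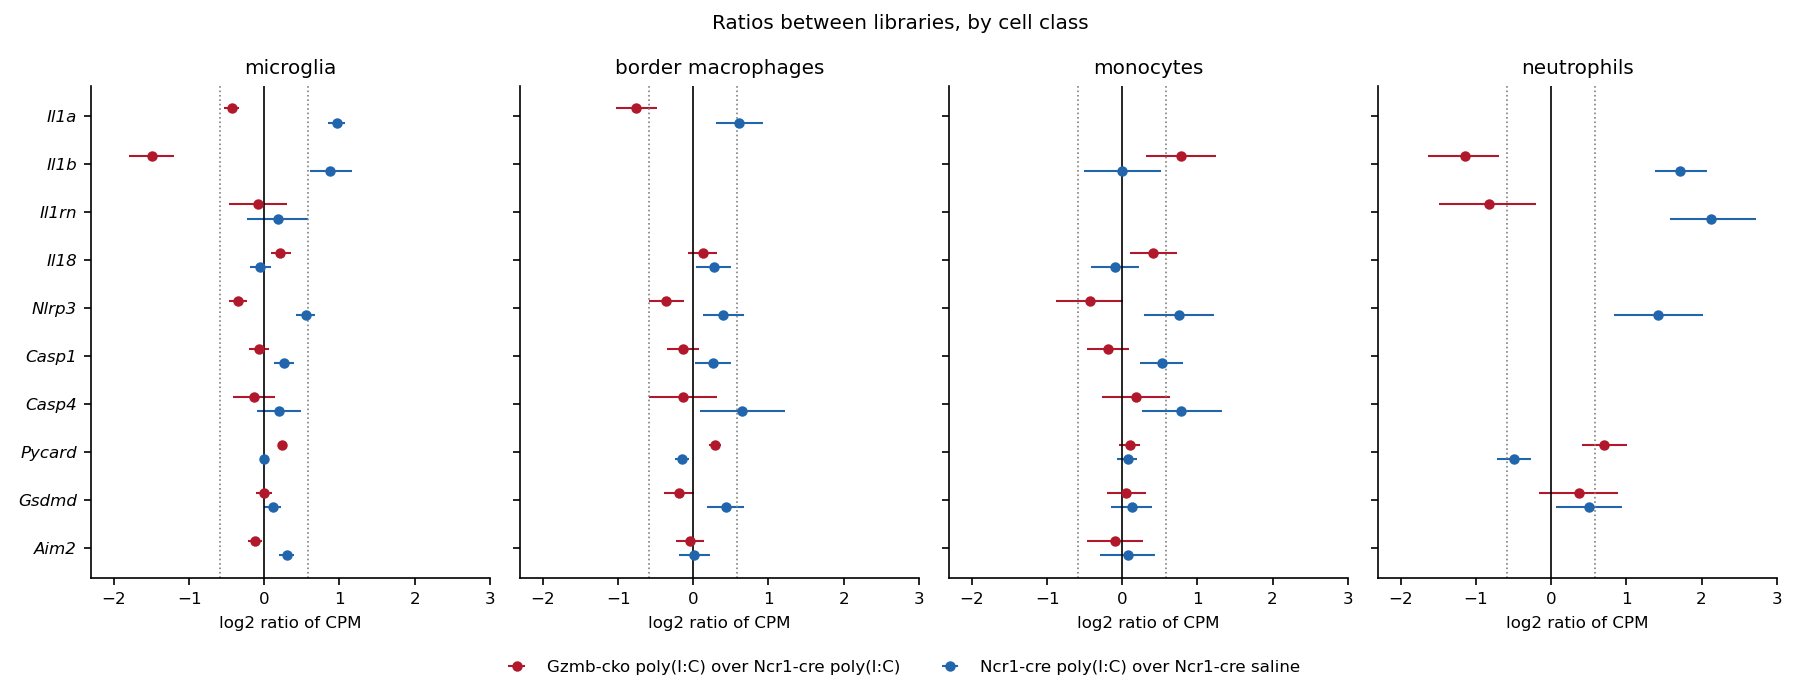
Log2 ratio of CPM (horizontal axis) for the members with at least 100 UMIs over the pair of libraries, in 4 cell classes, with exact 95% intervals for counting error; Gzmb-cko poly(I:C) over Ncr1-cre poly(I:C) is above Ncr1-cre poly(I:C) over Ncr1-cre saline for each gene, and dotted lines mark 1.5-fold. Il1b in microglia is at -1.50 and 0.88, and Il1rn in neutrophils at -0.83 and 2.13.

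Marker levels of other cells moved with the libraries. In microglia the erythroid markers summed to 17317 CPM in Gzmb-cko poly(I:C), 37341 in Ncr1-cre poly(I:C) and 65068 in Ncr1-cre saline, and the choroid plexus markers to 4027, 10204 and 11158 CPM. With cells over 5% hemoglobin or over 5% Ttr UMIs left out, Il1a in microglia was 48.7 CPM in Gzmb-cko poly(I:C), 69.7 in Ncr1-cre poly(I:C) and 37.3 in Ncr1-cre saline, and Il1b 4.10, 11.6 and 6.99. The libraries also differed in the sex of their cells: 32.0%, 47.9% and 41.5% of microglia had Xist and no Y-linked UMI. Among those cells Il1b had log2 ratios of -1.18 for Gzmb-cko poly(I:C) over Ncr1-cre poly(I:C) and 1.03 for Ncr1-cre poly(I:C) over saline, and Il1a -0.39 and 1.02. Among microglia with Y-linked UMIs and no Xist they were -2.02 (93 UMIs over both libraries) and 0.70 for Il1b, and -0.57 and 0.91 for Il1a.

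Other genes of the pathway were read from a list of 57 receptors, ligands, sensors, channels, effectors, signalling proteins and targets. In microglia 40 had enough UMIs: 7 were at least 1.5-fold lower and none higher in Gzmb-cko poly(I:C) than in Ncr1-cre poly(I:C), where 6.27% and 0.778% of all genes were. For Ncr1-cre poly(I:C) over saline 10 were higher and none lower, where 6.8% and 2% of all genes were. In the genotype comparison 0 of 4 receptors and decoys, 0 of 3 ion channels and 0 of 9 signalling genes passed 1.5-fold. In the poly(I:C) comparison 1, 0 and 1 of them did. The list genes given with values, here and in neutrophils below, each passed 1.5-fold in at least 1 comparison, so they do not stand for the whole list. Ccl2, a target of interleukin-1 signalling, was 59.0 CPM in Gzmb-cko poly(I:C), 124 in Ncr1-cre poly(I:C) and 49.5 in Ncr1-cre saline, with ratios of 0.476 (0.450 to 0.503) and 2.51 (2.36 to 2.67). Nlrp1b, another inflammasome sensor, was 5.36, 9.70 and 5.25 CPM (ratios 0.552 and 1.85), and Gbp5, an interferon-inducible GTPase that promotes inflammasome assembly, 4.23, 7.90 and 4.89 CPM (0.536 and 1.62). Txnip, a binding partner of NLRP3, was 233, 325 and 175 CPM, with ratios of 0.718, short of 1.5-fold, and 1.85.

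In border macrophages 3 of 36 list genes were lower and none higher in Gzmb-cko poly(I:C) than in Ncr1-cre poly(I:C) (5.05% and 1.41% of all genes), and 4 of 28 were higher and none lower in Ncr1-cre poly(I:C) than in saline (10% and 2.04%). In monocytes 1 of 26 was higher and 2 lower in the genotype comparison (2.47% and 2.93% of all genes), and 4 of 25 were higher and 1 lower in the poly(I:C) comparison (11.2% and 3.98%). In neutrophils 1 of 13 was higher and 3 lower in the genotype comparison (13.8% and 7.91% of all genes). In the poly(I:C) comparison of neutrophils 11 of 18 were higher and 1 lower, where 26.7% and 20.6% of all genes were. Il1r2, the decoy receptor that binds IL-1 without signalling, was 93.5 CPM in neutrophils of Gzmb-cko poly(I:C), 148 in Ncr1-cre poly(I:C) and 49.5 in Ncr1-cre saline, with ratios of 0.631 (0.479 to 0.820) and 2.99 (2.42 to 3.72). Il1f9, the older symbol for the ligand IL-36γ, was 90.8, 144 and 31.3 CPM, with ratios of 0.630 (0.477 to 0.823) and 4.61 (3.58 to 5.99). These share the order of libraries of Il1rn and the same neutrophils, with the limits on depth and maturity given above.

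The pattern of 6 members over 12 profiles (4 classes in 3 libraries) was compared with 5573 genes by Pearson correlation of log2(CPM + 1), as a description. The profiles of a library share its depth and preparation. Il1a was most like P2ry12 (0.980), Sall1 (0.978) and Plxdc2 (0.977), of which P2ry12 and Sall1 are microglial markers and P2ry12 set a gate. Il1b was most like Trim30b (0.978), Fam107b (0.971) and Rin3 (0.970), and Il1rn most like Gadd45a (0.963), Ing1 (0.952) and Ltb (0.952). Il18 was most like Babam1 (0.989), Dusp22 (0.987) and Mpp6 (0.984). Nlrp3 was most like Cr1l (0.968), Ufd1l (0.955) and Ap3m1 (0.932), and Casp1 most like Slfn8 (0.991), Pid1 (0.988) and Ogfr (0.987).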

How the data were processed

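The deposited values are UMI counts for each gene in each barcode, not normalized, made with Cell Ranger 5.0.0 per the file headers; per the submitters' processing notes Cell Ranger 3.0.1, STAR and mm10 were used. No source used here says how barcodes were called as cells. Libraries shared 63, 64 and 71 barcodes pairwise (0.412% to 0.514% of a library). The members and gene lists were chosen with earlier results of these data known. Named genes were all 10 members in every class, at most 6 genes of the pathway list with at least 100 UMIs over the libraries compared, and the 3 genes most correlated with each of 6 members among genes of mean 20 CPM or more.

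Cells were kept from 500 genes upward when mitochondrial UMIs made up no more than 10%, and gated by marker UMIs; 203, 224 and 432 cells in more than 1 gate (Gzmb-cko poly(I:C), Ncr1-cre poly(I:C), Ncr1-cre saline) were left out. UMIs were summed per class and library, the replicate being the library, and given as CPM with exact Poisson intervals, shares with Clopper-Pearson intervals and ratios with conditional exact binomial intervals. A count of 0 was taken to allow 3 counts. Ratios needed 100 UMIs over both libraries, and 1.5-fold was the size reported; no test was possible. Shares were also computed after thinning each cell to 2000 UMIs. No doublets were removed in the values reported: the automatic Scrublet threshold marked 0, 336 and 0 barcodes, so an alternative removed the highest scores at 0.8% per 1000 barcodes. Alternatives changed scaling (TMM, edgeR 4.0.16), filters, depth limit, gates, doublets, sex and granule class; 5 more, chosen after seeing the data, left out the richest cell, likely doublets at the expected rate, cells high in hemoglobin or Ttr, microglia with Plac8 or Ccr2, and border macrophages with P2ry12. The ratio and interval code was tested on simulated independent Poisson counts. These lack the clustering of UMIs seen for Il1b, so the test does not bear on intervals for clustered UMIs. Python 3.11.15, numpy 2.4.6, scipy 1.17.1, pandas 2.3.3, scanpy 1.11.5 and matplotlib 3.10.9 were used.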

Additional observations from a re-analysis of the deposited data

Results flagged for a closer look

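For Il1b the direction of the genotype comparison differed between cell classes in the values reported. The log2 ratio of Gzmb-cko poly(I:C) over Ncr1-cre poly(I:C) was -1.50 in microglia and -1.15 in neutrophils, but 0.78 in monocytes. Over the alternative settings it ran from -2.02 to -1.03 in microglia, from -3.09 to 0.45 in neutrophils and from -0.00 to 2.40 in monocytes. The direction was kept under 15 of 15, 11 of 13 and 11 of 12 settings in that order. A reversal between classes thus depended on the setting. Each class came from the same 2 libraries and there was 1 library per group, so the difference was not tested.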

How the results depend on the processing

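No paired analysis was possible because there was 1 library per group, and leaving out a replicate was not possible for the same reason. Il1b in microglia stayed at least 1.5-fold lower in Gzmb-cko poly(I:C) than in Ncr1-cre poly(I:C) under 15 of 15 alternatives (log2 -2.02 to -1.03). Ncr1-cre poly(I:C) over saline stayed past 1.5-fold in microglia under 15 of 15 for Il1a (0.79 to 1.06) and 14 of 15 for Il1b (0.58 to 1.15), and in neutrophils under 12 of 12 for Il1rn (1.70 to 2.53). Among the values past 1.5-fold, only Il1b turned direction: in neutrophils, with at least 1000 genes and at most 5% mitochondrial UMIs, log2 was 0.45 for Gzmb-cko poly(I:C) over Ncr1-cre poly(I:C) (34 UMIs over both libraries) and -0.13 for Ncr1-cre poly(I:C) over saline (56 UMIs), and among cells with Y-linked UMIs 0.25 for the first; in monocytes it was -0.0041 among Xist cells. The causes were not tested.

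The number of members past 1.5-fold moved as follows. For Gzmb-cko poly(I:C) over Ncr1-cre poly(I:C) it was 0 instead of 1 in microglia (Y cells) and in border macrophages (without P2ry12). In monocytes it was 0 instead of 1 (mean of per-cell CPM, cells in more than 1 gate kept, Y cells) or 2 (doublets removed, minimum of 30 UMIs). In neutrophils it was 0 instead of 3 (stricter filter, Xist cells, granule-rich cells) or 5 (cells in more than 1 gate kept, minimum of 30 UMIs). For Ncr1-cre poly(I:C) over saline it was 1 instead of 2 in microglia (cells in more than 1 gate kept). In border macrophages it was 0 instead of 2 (TMM, totals without mitochondrial, ribosomal and hemoglobin genes, doublets removed, Y cells, without P2ry12) or 1 (mean of per-cell CPM, stricter filter, cells in more than 1 gate kept, without hemoglobin- or Ttr-rich cells). In monocytes it was 1 instead of 2 (doublets removed, Xist cells) or 0 (Y cells). In neutrophils it was 0 instead of 3 (stricter filter, granule-rich cells), 1 (common limit of 3133 UMIs, Xist or Y cells, granule-poor cells) or 7 (minimum of 30 UMIs). Smaller sets of cells left fewer members with enough UMIs. Depth limits the sparse members most: Il1b and Il1rn in border macrophages and Il1a and Il1rn in monocytes were not compared.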
